A study of Mus musculus with 4 samples.

Results

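Transcripts of 10 genes of vessel growth were followed in MC38/gp100 tumour cells of the mouse after inhibition of type I protein arginine methyltransferases. They are the vascular endothelial growth factor (VEGF) ligand genes Vegfa, Vegfb, Vegfc and Pgf, the platelet-derived growth factor (PDGF) ligand genes Pdgfa and Pdgfb, the thrombospondin genes Thbs1 and Thbs2, the angiopoietin-like gene Angptl4 and the co-receptor gene Nrp1. They were chosen by name, with the inhibitor against DMSO results of these libraries already known, and each had to have a base mean, the average over the 4 libraries of reads divided by a size factor. All 10 met this, out of 12578 genes with values, and 6 of them reached a base mean of 10, the minimum for testing, which 8562 genes passed. The 2 groups were cells kept for 5 days with 1 µM GSK3368712, an inhibitor of type I arginine methyltransferases, and cells kept as long with DMSO, its solvent. Each group had 2 libraries of messenger RNA, named A and B after the table's columns. MC38 was derived from a colon adenocarcinoma of a mouse, and the gp100 in the name of the cells is a melanocyte protein, the product of Pmel. The labels do not state whether replicate libraries stem from separate cultures, so p-values measure the spread between libraries, which may be technical.

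VEGF ligands bind receptor tyrosine kinases on endothelial cells, where VEGFA drives sprouting and permeability, VEGFC acts mainly on lymphatic vessels, and neuropilins hold the ligand to its receptor. PDGF chains pair into dimers that act on fibroblasts and on the mural cells around vessels. Thrombospondins 1 and 2 are secreted matrix proteins that restrain vessel growth, and tumour cells are a source of ligands of all these kinds. The libraries came from cultured cells, and the values do not show which cells in the culture held a transcript.

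Reads per library were worked back from the deposited base means and came to between 1000139 and 1096033 over the 12575 genes with a single solution. These totals are low, and a gene at the median base mean held 22.6 normalised reads. Among the top 20 genes by base mean, 18 had an exon that overlaps an exon of another gene on the opposite strand, as had 33.5% of all genes with values. No source used here gives the strand setting of the counting, so which gene the reads at such an overlap came from cannot be told apart. All genes with such an overlap held 59.4% of the summed base means. Among the 10 genes, Pdgfa and Thbs1 have such an overlap and the other 8 have none. Whether the strand setting also changed the counts of genes without an overlap was not tested. Of 10 colon epithelial markers, Epcam, Krt18, Krt20, Cdx2 and Esrp1 had no value and Krt8 alone reached the minimum, at a locus that overlaps Gm36026. The 5 with values summed to 30.9 and 23.0 normalised reads in inhibitor A and B and 27.8 and 27.1 in DMSO A and B. In these counts the defining markers of colon epithelium were thus absent or scarce. Pmel, the gene behind the gp100 name, had 27.8 and 35.1 normalised reads in inhibitor A and B and 25.1 and 33.4 in DMSO A and B, at a locus that overlaps Dgka and Cdk2. Of 10 endothelial markers 7 had no value, Kdr, Tek and Vwf among them. The 3 with values (Pecam1, Cdh5 and Egfl7) summed to 11.3 and 8.01 normalised reads in inhibitor A and B, against 4.49 and 4.18 in DMSO A and B. The part of these reads in the results was not tested.

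Vegfa and Thbs1 transcripts fell and Pdgfa transcripts rose with the inhibitor, while Vegfb, Pdgfb and Angptl4 did not pass the test. Vegfa stood at 0.618 and Thbs1 at 0.613 of the DMSO mean, and Pdgfa at 1.77 times it. Of the 6 genes tested, 2 were therefore lower and 1 higher (limma on the deposited log2 values, Benjamini-Hochberg adjusted p under 0.05, two-sided). Of all 8562 genes tested, 0.841% were lower and 1.3% higher by the same rule, 2.14% in all. In limma on log2 of normalised reads plus 1 the same 3 genes were called, where 1.97% of 8559 genes were called, 1.2% higher and 0.771% lower. In the authors' deposited table (DESeq2) the same 3 genes passed an adjusted p of 0.05, where 0.574% of 4527 genes with an adjusted p passed, 0.353% higher and 0.221% lower. The groups did not overlap at 4 of the 6 genes and at 41.2% of all genes with recovered reads at this minimum. Lower transcript levels in all cells and fewer cells transcribing a gene cannot be told apart in bulk RNA. Since the genes were proposed with these results known, their share of calls is a description and nothing is read from it. Their adjusted p-values come from fits over all genes and likewise describe these libraries, with no independent support from the choice of genes. The median log2 fold change was -0.11 over the 6 genes and 0.01 over all genes tested.

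**Figure D1:**
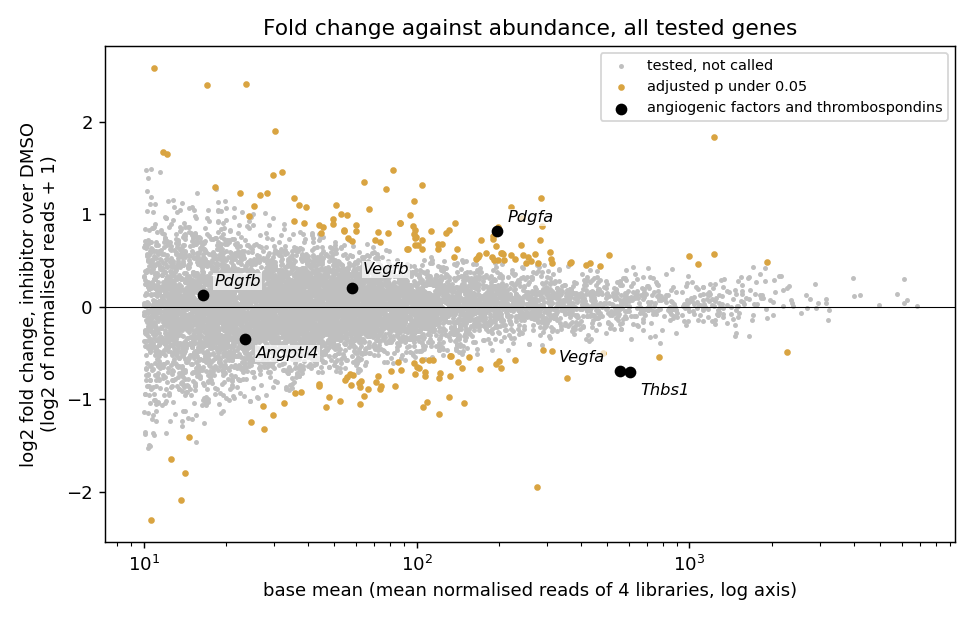
Log2 fold change (inhibitor over DMSO, on log2 of normalised reads + 1) against base mean (log axis) for all tested genes; ochre points have an adjusted p under 0.05 and black points are the 6 tested angiogenic factors and thrombospondins. Vegfa and Thbs1 lie at -0.69 and -0.70 among the abundant genes, Pdgfa lies at 0.82, and the other 3 lie within the cloud.

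Vegfa encodes the main VEGF ligand of vessel sprouting (ENSMUSG00000023951.17; mm10 chromosome 17, 46016993 to 46032369, minus strand; 8 exon blocks, no opposite-strand exon). It had 405 and 431 reads in inhibitor A and B and 772 and 652 reads in DMSO A and B. Scaled by the size factors, these were 416.7 and 431.6 normalised reads with the inhibitor, against 692.6 and 680.6 in DMSO. The groups did not overlap, and libraries of the same group lay close together. The means were 424.2 ± 10.6 normalised reads with the inhibitor and 686.6 ± 8.50 in DMSO (SD, n = 2 each). The log2 fold change was -0.69 ± 0.13 (SE; limma on log2 of normalised reads plus 1), with an adjusted p of 0.00012 in the limma fit to the deposited log2 values. Without inhibitor A or inhibitor B the call was lost (limma, adjusted p = 0.11 and 0.055), although the log2 fold change stayed at -0.67 and -0.72. Its adjusted p by DESeq2 was 0.0014, as the authors' deposited table gives it.

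Thbs1 encodes thrombospondin 1, a matrix protein that inhibits endothelial growth and activates latent TGF-beta (ENSMUSG00000040152.8; chromosome 2, 118111876 to 118127133, plus strand; 22 exon blocks). It had 479 and 424 reads in inhibitor A and B, against 912 and 650 in DMSO A and B, or 492.8 and 424.6 normalised reads with the inhibitor and 818.2 and 678.5 in DMSO. Here the groups again did not overlap, but the libraries of a group lay further apart than for Vegfa. The exact Poisson 95% interval of DMSO A (765.9 to 873.1 normalised reads) did not reach that of DMSO B (627.3 to 732.7), so their gap was wider than counting error; such intervals cover counting error only. The means were 458.7 ± 48.2 normalised reads with the inhibitor and 748.3 ± 98.8 in DMSO (SD, n = 2 each). The log2 fold change was -0.70 ± 0.13 (SE; limma on log2 of normalised reads plus 1), with an adjusted p of 0.00011 in the limma fit to the deposited log2 values. DESeq2 gave an adjusted p of 0.0041 in the authors' deposited table. Without inhibitor B it missed the threshold (limma, adjusted p = 0.21). The lincRNA gene Gm29233 on the minus strand (118123451 to 118124047) shares 208 bp with Thbs1 exons, 187 of them coding, which is 3.42% of the exon length of Thbs1.

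Pdgfa encodes the PDGF A chain, a mitogen of mesenchymal cells (ENSMUSG00000025856.15; chromosome 5, 138976014 to 138997370, minus strand; 12 exon blocks). Inhibitor A and B held 258 and 238 reads, and DMSO A and B held 146 and 147. In normalised reads it reached 265.4 and 238.4 with the inhibitor, against 131.0 and 153.4 in DMSO, and both inhibitor libraries lay above both DMSO libraries. The means were 251.9 ± 19.1 normalised reads with the inhibitor and 142.2 ± 15.9 in DMSO (SD, n = 2 each). Its log2 fold change was 0.82 ± 0.15 (SE; limma on log2 of normalised reads plus 1), with an adjusted p of 2.4e-05 in the limma fit to the deposited log2 values. DESeq2 gave it an adjusted p of 0.024 in the authors' deposited table. The call held without any single library (limma, adjusted p from 4.7e-06 to 0.028). The antisense gene 6330403L08Rik, on the plus strand from 138995056, shares 813 bp with Pdgfa exons, none of them coding and 26.1% of the exon length. All 813 bp lie upstream of the farthest RefSeq start of Pdgfa, and 6330403L08Rik begins 112 bp upstream of that start. All 12578 genes with values are annotated as protein-coding, and neither 6330403L08Rik nor Gm29233 is among them.

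With 4 libraries an exact two-sided permutation test of a single gene cannot go below 0.333, so these calls rest on limma's pooled variance. Its prior carried 182 degrees of freedom against 2 of each gene's own. With no minimum on the base mean, none of the 3 genes was called (limma, adjusted p = 0.051 for Vegfa, 0.054 for Pdgfa and 0.095 for Thbs1).

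**Figure D2:**
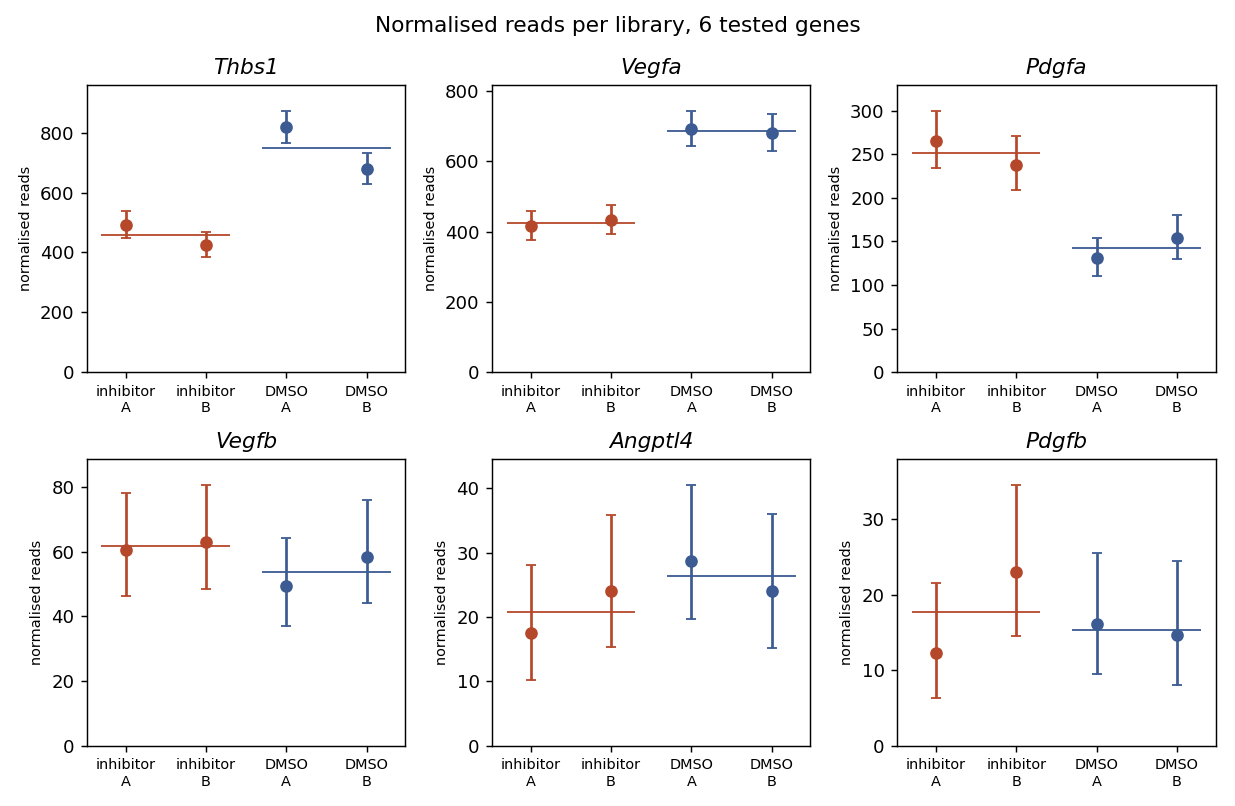
Normalised reads per library of the 6 tested genes, inhibitor libraries left of DMSO libraries; error bars are exact Poisson 95% intervals and horizontal lines are group means. Vegfa and Thbs1 are lower in both inhibitor libraries, Pdgfa is higher in both, and the intervals of Vegfb, Angptl4 and Pdgfb overlap across all 4 libraries.

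The promoters of the called genes were compared in sequence with that of Vegfb, a family member that was not called. RefSeq promoter windows (GRCm38.p6, the build of mm10) were found for 7 of the 10 genes, with none for Thbs1, Pdgfb or Angptl4. The 250 bases before the farthest start are shown 5′ to 3′ on the gene's strand, with capitals marking the GC box GGGCGG or its reverse complement CCGCCC, a motif bound by SP1. The windows are chr17:46032378-46032627 for Vegfa, chr5:138994945-138995194 for Pdgfa and chr19:6987652-6987901 for Vegfb, all on the minus strand.
Vegfa: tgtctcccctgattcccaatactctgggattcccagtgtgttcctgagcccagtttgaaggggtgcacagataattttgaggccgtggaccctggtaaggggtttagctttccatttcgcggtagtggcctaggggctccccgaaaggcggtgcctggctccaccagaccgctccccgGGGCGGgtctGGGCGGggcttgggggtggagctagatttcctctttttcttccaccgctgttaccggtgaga
Pdgfa: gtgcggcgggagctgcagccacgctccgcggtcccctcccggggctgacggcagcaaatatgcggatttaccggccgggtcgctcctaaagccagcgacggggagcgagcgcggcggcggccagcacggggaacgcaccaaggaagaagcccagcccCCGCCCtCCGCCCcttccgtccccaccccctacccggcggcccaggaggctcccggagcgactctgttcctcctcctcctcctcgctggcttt
Vegfb: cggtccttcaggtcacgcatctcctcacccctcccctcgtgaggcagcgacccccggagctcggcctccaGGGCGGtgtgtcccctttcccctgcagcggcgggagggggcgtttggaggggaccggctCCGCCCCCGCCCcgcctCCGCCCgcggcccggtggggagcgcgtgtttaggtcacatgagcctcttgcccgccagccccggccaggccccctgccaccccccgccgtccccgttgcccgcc
Vegfa, which fell, and Pdgfa, which rose, each held 2 GC boxes, and Vegfb held 4, counting overlapping matches on both strands. In all, 6 of the 7 windows held at least 1, as did 32.7% of 32851 RefSeq promoter windows of the same length. GC content was 59.2% for Vegfa, 72.4% for Pdgfa and 76.4% for Vegfb, against a median of 52.4% over all windows. ACGTG, a form of the core of the hypoxia response element, was in none of the 7 windows and in 16.6% of all windows, searched on both strands. The form GCGTG was not counted. The AP-1 motif TGANTCA was in none of the 7 and in 6.75% of all. The TATA box TATAAA was in 1, that of Thbs2, and in 12.4% of all. A match is a description of letters and not of binding. Sequence outside these windows was not searched, so a missing motif is missing from these 250 bases only. The start of 6330403L08Rik lies within the Pdgfa window.

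The other VEGF ligand genes were far less abundant than Vegfa. Vegfb, whose product supports coronary vessels and fatty acid uptake, had 59 and 63 reads in inhibitor A and B, against 55 and 56 in DMSO A and B. That is 60.7 and 63.1 normalised reads with the inhibitor and 49.3 and 58.5 in DMSO. Both inhibitor libraries lay above both DMSO libraries, but the counting intervals overlapped, and 20.7% of all genes tested showed such an order. The log2 fold change was 0.20 ± 0.21 (SE; limma on log2 of normalised reads plus 1) and did not pass (limma on the deposited values, adjusted p = 0.80). Pgf, placental growth factor, a ligand of VEGF receptor FLT1, had 4 and 5 reads in inhibitor A and B and 3 and 1 in DMSO A and B. Both inhibitor libraries held more reads than both DMSO libraries, but its base mean of 3.21 kept it out of the test. Its DESeq2 p was 0.39 in the authors' deposited table, with no adjusted p. Vegfc, the lymphatic growth factor, had 8 reads in inhibitor A and 0 in inhibitor B, DMSO A and DMSO B, where 0 reads allow up to 3 by counting error. The reads thus came from 1 library, and the other inhibitor library held none; the authors' deposited table gave Vegfc a p of 0.35 (DESeq2).

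Per kilobase of exon, Vegfa was the leading VEGF ligand gene in every library, and its lead was smaller with the inhibitor. Its level was 97.2 and 100.7 normalised reads per kilobase in inhibitor A and B, against 161.6 and 158.8 in DMSO A and B. Vegfb followed with a level of 37.8 and 39.3 normalised reads per kilobase in inhibitor A and B and 30.7 and 36.4 in DMSO A and B. Of the summed level of the 4 VEGF ligand genes per kilobase, Vegfa held 69.5% and 71.1% in inhibitor A and B, against 83.6% and 81.2% in DMSO A and B. Vegfb held 27.0% and 27.7% with the inhibitor, against 15.9% and 18.6% in DMSO. These shares come from the same reads as the fold changes and add no separate test.

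The second PDGF ligand gene was scarce. Pdgfb, the B chain that recruits pericytes, had 12 and 23 reads in inhibitor A and B, against 18 and 14 in DMSO A and B, so the inhibitor libraries enclosed the DMSO ones. Its log2 fold change was 0.13 ± 0.39 (SE; limma on log2 of normalised reads plus 1; adjusted p = 0.92 in the limma fit to the deposited values). Without inhibitor B its difference was negative. Pdgfa held 96.6% and 93.2% of the summed level of both PDGF ligand genes per kilobase in inhibitor A and B, against 91.5% and 93.3% in DMSO A and B. These shares overlapped between the groups.

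Angptl4, a secreted inhibitor of lipoprotein lipase that also acts on vessel permeability, had 17 and 24 reads in inhibitor A and B and 32 and 23 in DMSO A and B. Scaled, it had 17.5 and 24.0 normalised reads with the inhibitor and 28.7 and 24.0 in DMSO, and the groups overlapped. Its log2 fold change was -0.34 ± 0.32 (SE; limma on log2 of normalised reads plus 1; adjusted p = 0.77 in the limma fit to the deposited values). Nrp1, neuropilin 1, a co-receptor of VEGFA and class 3 semaphorins, had 4 and 8 reads in inhibitor A and B and 10 and 6 in DMSO A and B. These ranges overlap, and its base mean of 6.84 left it untested. Thbs2, thrombospondin 2, the closest relative of Thbs1 and likewise an inhibitor of vessel growth, had 3 reads in inhibitor A and 0 in the other libraries. Nrp1, Pgf, Vegfc and Thbs2 had few reads and were not tested, so a difference in them is neither called nor excluded.

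**Figure D3:**
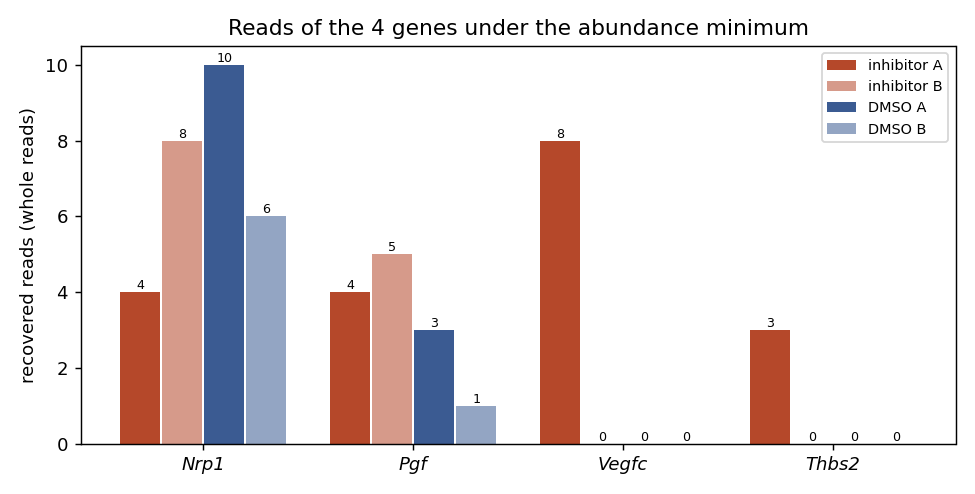
Whole reads per library of the 4 genes under the abundance minimum, inhibitor libraries left of DMSO libraries, with the count above each bar. No gene exceeds 10 reads in a library, and Vegfc and Thbs2 have reads in inhibitor A alone.

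Vegfa and Thbs1 kept a similar ratio of reads in the groups, whereas Pdgfa and Vegfa did not. Reads at Vegfa per read at Thbs1 were 0.846 and 1.017 in inhibitor A and B, and 0.846 and 1.00 in DMSO A and B. Reads at Pdgfa per read at Vegfa were 0.637 and 0.552 in inhibitor A and B, against 0.189 and 0.225 in DMSO A and B. Such a ratio within a library does not depend on the scaling between libraries. These ratios were formed from the called genes, come from the same reads as their fold changes and add no separate test. Among the 372 tested genes whose base mean was 500 or more, a limit chosen after the values were seen, 4 were called lower (Thbs1, Vegfa, mt-Nd6 and Kif3c) and 6 were called higher. Thbs1 had the lowest log2 fold change of the 372 and Vegfa the next. These ranks depend on the limit and are no support for the genes, since some genes under it fell further, such as Glrp1 (log2 fold change -1.16).

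Genes whose deposited log2 values, centred on each gene's mean, ran most like those of the called genes over the 4 libraries were sought among 2038 other genes whose base mean was 100 or more. For Vegfa the nearest were Glrp1 (root mean square difference 0.031), Zfp867 (0.049) and Tssk6 (0.062). For Thbs1 they were Peak1 (0.079), Prrc2b (0.088) and Zfp867 (0.093), and for Pdgfa they were Mroh2a (0.021), Sync (0.039) and Smarcd3 (0.046). The deposited values are pulled toward the gene's mean, more so for scarce genes, so likeness on this scale need not be likeness of folds. Glrp1 had 68.9 and 80.1 normalised reads in inhibitor A and B, against 158.8 and 175.4 in DMSO A and B, a log2 fold change of -1.16, larger in size than that of Vegfa. Mroh2a had 625.5 and 587.9 normalised reads in inhibitor A and B, against 389.4 and 434.2 in DMSO A and B, a log2 fold change of 0.56. With 4 libraries this measure mainly tracks the group difference.

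Other secreted angiogenic factors were examined from a list of 24 genes, of which 18 had values and 10 were tested. Of these, 3 fell and none rose, with a median log2 fold change of -0.37, against 0.01 over all genes tested. By the same rule 0.841% of all genes tested were lower and 1.3% higher, which is also the background for the single calls in the smaller lists that follow. Fgf7, a fibroblast growth factor for epithelial cells, had 84.4 and 94.1 normalised reads in inhibitor A and B, against 138.2 and 168.1 in DMSO A and B (log2 fold change -0.77 ± 0.17; limma, adjusted p = 0.0013). Fgf2, a mitogen of endothelial cells, had 53.5 and 63.1 normalised reads in inhibitor A and B, against 85.2 and 131.5 in DMSO A and B (log2 fold change -0.85 ± 0.19; limma, adjusted p = 0.0016). Its locus overlaps Nudt6 on the opposite strand. Hbegf, an EGF receptor ligand, had 14.4 and 22.0 normalised reads in inhibitor A and B, against 44.0 and 38.6 in DMSO A and B (log2 fold change -1.16 ± 0.30; limma, adjusted p = 0.013). Fgf7 lost its call without inhibitor A (limma, adjusted p = 0.13), Fgf2 without inhibitor A or DMSO B (0.12 and 0.27) and Hbegf without inhibitor A or DMSO A (0.33 and 0.15). DESeq2 gave Fgf7 an adjusted p of 0.25 and Fgf2 one of 0.38 in the authors' deposited table, and Hbegf had none.

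Among angiopoietins, TIE receptors and angiopoietin-like genes, 1 of 4 tested members fell (median log2 fold change -0.10). Angptl2, a secreted inflammatory and angiogenic factor, had 49.4 and 43.1 normalised reads in inhibitor A and B, against 82.5 and 89.8 in DMSO A and B (log2 fold change -0.89 ± 0.20; limma, adjusted p = 0.0032). The call was lost without inhibitor B (limma, adjusted p = 0.13). Of class 3 semaphorins and their plexin receptors, ligands and partners of neuropilins, 1 of 5 tested members fell (median -0.20). Sema3a, a repellent of axons and endothelial cells, had 66.9 and 81.1 normalised reads in inhibitor A and B, against 128.3 and 116.9 in DMSO A and B (log2 fold change -0.73 ± 0.18; limma, adjusted p = 0.0061). It lost its call without inhibitor A (limma, adjusted p = 0.30) or DMSO A (0.081). Of secreted inhibitors of angiogenesis 1 of 8 tested members rose (median 0.17). Thbs1, which fell, was kept out of this list. Cxcl10, a chemokine that attracts T cells and restrains vessel growth, had 224.3 and 255.4 normalised reads in inhibitor A and B, against 122.9 and 160.7 in DMSO A and B (log2 fold change 0.76 ± 0.15; limma, adjusted p = 0.00018), at a locus that overlaps Art3. Without inhibitor B it was not called (limma, adjusted p = 0.077). In the authors' deposited table none of these passed (DESeq2, adjusted p = 0.40 for Angptl2, 0.48 for Sema3a and 0.097 for Cxcl10).

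**Figure D4:**
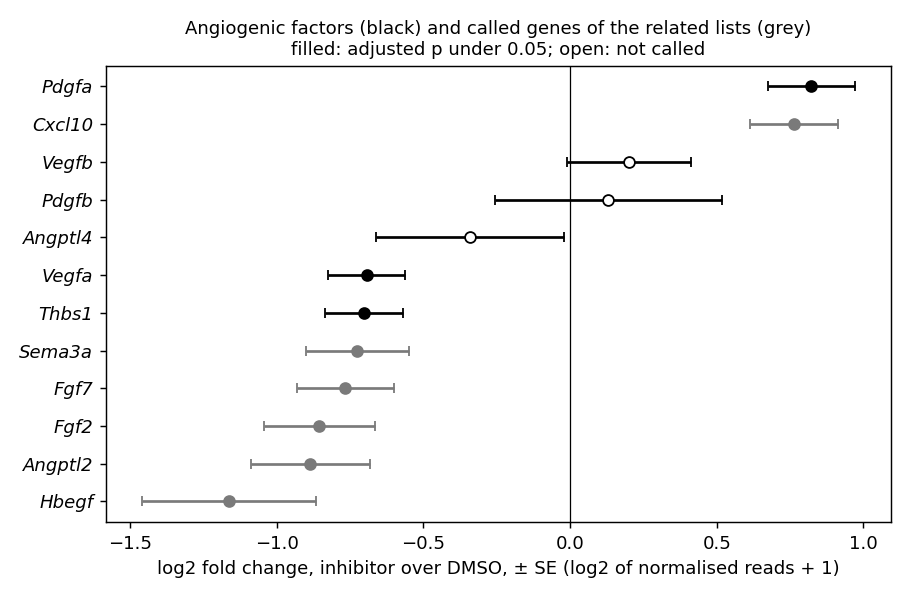
Log2 fold change with its SE (inhibitor over DMSO, on log2 of normalised reads + 1) of the 6 tested angiogenic factors and thrombospondins (black) and of the called genes of the related lists (grey); filled points have an adjusted p under 0.05. Pdgfa and Cxcl10 lie above 0, and the other called genes lie between -0.69 (Vegfa) and -1.16 (Hbegf).

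The lists of receptors, hypoxia regulators and hypoxia target genes had no called member. The genes reported were kept out of every list, so Vegfa is not among the hypoxia targets. Without adjustment, p was under 0.05 in limma for 1 of 4 receptors, 4 of 21 hypoxia targets and 0 of 8 hypoxia regulators, against 12.2% of all genes tested. Likewise voom, limma on log2 of normalised reads plus 1 and the authors' deposited table called none of them. Of VEGF and PDGF receptors and co-receptors, Kdr and Flt4 had no value and none of 4 tested members passed. Nrp2, a neuropilin for VEGFC, had 310.7 and 326.5 normalised reads in inhibitor A and B and 326.6 and 294.4 in DMSO A and B. Pdgfra, the receptor of PDGF A chains, had 42.2 and 53.1 normalised reads in inhibitor A and B and 65.5 and 72.0 in DMSO A and B (log2 fold change -0.53 ± 0.21; limma, adjusted p = 0.23), at a locus that overlaps Gm42802 and Gm42803. None of 21 tested hypoxia target genes was called (median log2 fold change 0.04; limma, lowest adjusted p = 0.14). Eno1, a glycolytic enzyme, had a log2 fold change of 0.21 ± 0.13 and Aldoa, likewise glycolytic, of 0.04 ± 0.13. None of 8 hypoxia factors and regulators was called either (median -0.02; limma, lowest adjusted p = 0.75), among them Egln1 (0.08 ± 0.17), an oxygen-sensing hydroxylase, and Cited2 (0.14 ± 0.15), a competitor of HIF for its co-activator.

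Lists around Thbs1, Angptl4 and ligand processing were likewise without a call in limma, voom or the authors' deposited table. Without adjustment, p was under 0.05 in limma for 3 of 6 thrombospondin partners and 2 of 10 YAP and TGF-beta targets. So it was for 3 of 9 PPAR targets and 2 of 8 processing genes, where 12.2% of all genes tested had such a p. None of 6 tested genes of other thrombospondins and thrombospondin receptors passed (median log2 fold change 0.19; limma, lowest adjusted p = 0.22). Itgb1, an integrin chain, had 1384 and 1450 normalised reads in inhibitor A and B and 1409 and 1433 in DMSO A and B. Calr, calreticulin, a binding partner of thrombospondin 1, had 1098 normalised reads in both inhibitor libraries and 871 in both DMSO libraries (log2 fold change 0.33 ± 0.13; limma, adjusted p = 0.22). No call fell among 10 tested genes listed as YAP and TGF-beta targets (median log2 fold change near 0, lowest adjusted p = 0.17 in limma). Of these, Sparc was at 0.35 ± 0.13 and Axl at 0.29 ± 0.13 on the log2 scale. The matricellular genes Ctgf, Postn and Tnc had no value. Sparc, a collagen-binding matrix protein, passed without DMSO A but not without any other single library. None of 9 tested targets of PPAR, the lipid-sensing receptors that also drive Angptl4, passed (median -0.07; limma, lowest adjusted p = 0.14), with Plin2, a lipid droplet protein gene, at -0.07 ± 0.16. None of 8 tested genes of VEGFC and PDGF proprotein processing passed (median -0.05; limma, lowest adjusted p = 0.086), with Mmp14 at 0.15 ± 0.14 and Furin at 0.06 ± 0.18. Plau, the urokinase gene, named after its values were seen, had 88.5 and 96.1 normalised reads in inhibitor A and B, against 76.3 and 47.0 in DMSO A and B (log2 fold change 0.61 ± 0.19; limma, adjusted p = 0.086). It passed without DMSO A but not without any other single library. Both other VEGF and PDGF ligand genes with values lay under the minimum: Pdgfc had 10.3 and 3.005 normalised reads in inhibitor A and B and 3.59 and 8.35 in DMSO A and B, and Vegfd had 0 and 1.00 in inhibitor A and B and 3.59 and 1.04 in DMSO A and B.

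Fibroblast markers were the most abundant of the marker lists of other cell types. In the list of 10 fibroblast markers 6 genes were tested, of which Col3a1 rose. It encodes a fibrillar collagen and had 328.2 and 313.5 normalised reads in inhibitor A and B, against 177.6 and 152.4 in DMSO A and B (log2 fold change 0.96 ± 0.14; limma, adjusted p = 1.5e-07). The 6 summed to 2385 and 2095 normalised reads in inhibitor A and B, against 1862 and 1732 in DMSO A and B, and Lum, Fap, Thy1 and Postn had no value. Without adjustment, p was under 0.05 in limma for 4 of the 6, against 12.2% of all genes tested. Of all genes tested, 1.3% were called higher. Of genes named after their values were seen, the collagen genes Col1a1 and Col1a2 were not called (limma, adjusted p = 0.057 and 0.056). Their log2 fold changes were 0.43 ± 0.13 and 0.44 ± 0.14. Col1a1 passed without either DMSO library and Col1a2 without DMSO B only, and neither passed without an inhibitor library. Pdgfra, on this list too, had a log2 fold change of the opposite sign (-0.53 ± 0.21). Fn1 and Dcn, also named after their values were seen, were at 0.003 ± 0.13 and 0.21 ± 0.19 (limma, adjusted p = 0.997 and 0.74). The Fn1 locus overlaps Apol7d. None of 2 tested pericyte and smooth muscle markers was called by limma, with 0 at an unadjusted p under 0.05, and voom called none, with Pdgfrb at 0.15 ± 0.28 and Tagln at -0.01 ± 0.18 on the log2 scale. The 6 of 9 with values summed to 145.1 and 122.2 normalised reads in inhibitor A and B and 127.4 and 150.3 in DMSO A and B. None of 2 tested macrophage markers was called by limma, with 0 at an unadjusted p under 0.05, and voom called none, with Csf1r (overlapping Hmgxb3) at 0.15 ± 0.13 and Cd14 at -0.10 ± 0.35; Ptprc, Adgre1, Itgam, Lyz2 and Tyrobp had no value. Of 5 megakaryocyte and platelet markers, 4 had values, all under the minimum for testing. They summed to 17.5 and 17.0 normalised reads in inhibitor A and B, against 6.28 and 5.22 in DMSO A and B. A difference in these scarce markers is neither called nor excluded. Their part in the result for Pdgfa or Thbs1, which platelets also hold, was not tested.

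**Figure D5:**
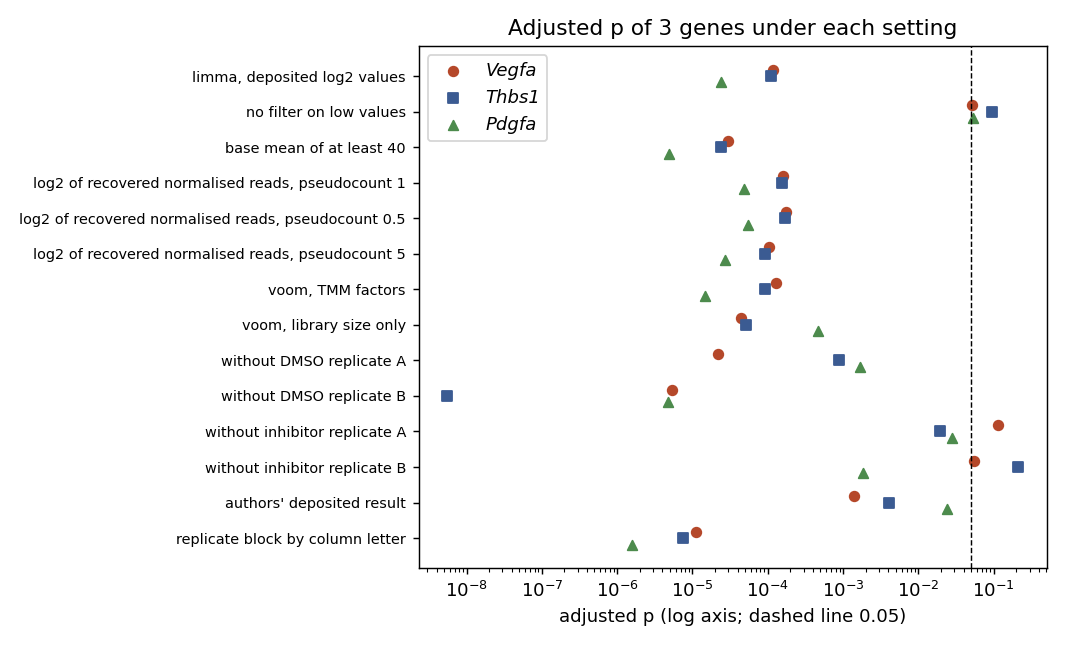
Adjusted p (log axis) of Vegfa, Thbs1 and Pdgfa under each setting; the dashed line marks 0.05. All 3 genes lie left of the line except with no minimum on the base mean, Vegfa without inhibitor A or B, and Thbs1 without inhibitor B.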

How the data were processed

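Stranded mRNA libraries were prepared from column-purified RNA, per the labels' protocols. The submitters' processing notes name mm10 and, with no role for any, StringTie 1.3.0, HISAT2 2.1.0, SAMtools 1.2 and the DESeq2 used by the authors. The sources used here do not give the counter, its strand setting or its gene models. A single table was deposited. Per the file headers, it holds log2 values per library (named logCPM), a base mean (a signal, the mean of size-factor-scaled counts), a log2 fold change with its standard error, a Wald score, a p-value and an adjusted p-value. The log2 values are pulled toward each gene's mean: the group difference had a slope of 0.133 on the deposited fold change at base means from 10 to 100 and of 0.487 from 100 up. Column letters are not tied to the labels' replicate numbers.

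Size factors of 0.972 and 0.999 (inhibitor A and B) and 1.11 and 0.958 (DMSO A and B) were read from the 10 lowest base means, the ways of placing 2 reads in 4 libraries. Whole reads that give each base mean to its 15 digits were then searched. All placements were searched up to a base mean of 250 and for the 10 genes reported, and a window around the deposited values above it. A single solution was found for 12575 of 12578 genes.

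The table holds no counts per library, so limma 3.58.1 (R 4.3.3) with an intensity trend was fitted to the deposited log2 values of 8562 genes whose base mean reached 10, with group as the only term. Adjusted p under 0.05 made a call. Fold changes and SEs come from limma on log2 of normalised reads plus a pseudocount of 1. Scripts were tested on simulated data. The chi-square per gene between replicate libraries was 1.47 with the inhibitor and 2.16 in DMSO, above counting noise in both. All 4 libraries were kept as separate, but this spread does not show whether they stem from separate cultures. Alternatives were other minima, pseudocounts, voom, the deposited result of the authors and leaving out each library. Gene positions and overlaps are from GENCODE M21, where 10365 gene IDs matched with version, 2205 without and 8 not at all. The genes and lists were chosen with earlier results of these data known. Named are all 10 genes; of each list up to 4 called genes or else the 2 most abundant tested; the 3 genes most alike to each called gene; and opposite-strand partners. A gene that this rule names is not reported here.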

Additional observations from a re-analysis of the deposited data

How the results depend on the processing

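With n = 2 per group, low depth and a pooled variance limit the calls. When a library is left out, the lone sample of its group is assumed to vary like the others. Among all genes, 111 were higher and 72 lower. These counts moved to 12 and 4 with no minimum on the base mean, to 16 and 10 in the authors' deposited table, and to 71 higher with voom and library size only. They ranged from 42 to 178 higher and from 21 to 76 lower without 1 library. Of the 10 genes reported, 1 higher and 2 lower became 0 and 0 with no minimum. Without 1 library, 1 remained higher in each case and 0 to 2 were lower, 1 without inhibitor A and 0 without inhibitor B. On the related lists, 1 higher and 5 lower became 0 and 0 with no minimum and in the authors' deposited table, and ranged from 0 to 3 higher and 1 to 4 lower without 1 library. The cause of these changes was not tested. Minima of 40, pseudocounts of 0.5 and 5, and voom with either scaling kept the calls at Vegfa, Thbs1 and Pdgfa.

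Signs turned only at genes without a call. With voom and library size only the log2 difference became -0.00162 for Aldoa and -0.000125 for Nrp2. The fits without 1 library used the deposited log2 values, which are pulled toward the gene's mean, so these differences are smaller than fold changes. They ranged from -0.0243 (no inhibitor B) to 0.0593 for Pdgfb, -0.00838 to 0.0685 for Egln1 and -0.099 to 0.124 for Furin. The range was -0.0284 to 0.0215 for Itgb1 and -0.018 to 0.189 for Mmp14. It was -0.0209 to 0.0642 for Nrp2 and -0.0928 to 0.0359 for Plin2. On log2 of normalised reads plus 1, Pdgfb ranged from -0.29 (no inhibitor B) to 0.55 (no inhibitor A). No analysis paired by the labels' replicate numbers was possible, since the columns carry letters. A replicate block by column letter, added after seeing the data, left 1 residual degree of freedom and gave 133 higher and 94 lower genes, with 1 higher and 2 lower of the genes reported and 1 higher and 5 lower on the related lists. Deviations of same-letter libraries correlated at 0.038 over 8559 genes, so the letters are not taken as pairs.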

Other observations

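Vegfc was the only gene of the 12575 with recovered reads that had 8 or more reads and all of them in 1 library. The limit of 8 was set after its value was seen. At a limit of 3 reads, the number of genes with all reads in 1 library was 20 for inhibitor A, Thbs2 among them, 11 for inhibitor B, 18 for DMSO A and 8 for DMSO B. The 8 reads at Vegfc therefore have no counterpart in the other libraries, inhibitor B included.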
